A study of Mus musculus with 24 samples.

Results

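Crip2, Mcam, Gna15, Gulo, Cpt1c, Gria3, Ano3, Slc4a11, Zfp365 and Abcb1b are 10 of the 37620 genes measured in mouse jejunal crypts, the pockets of the small intestinal lining that hold its stem and dividing cells. They were picked because they were among the genes most raised when Nle1 was lost, with Apc intact or lost, so their levels under Nle1 loss are given as a description with no p, and the counts of calls there stand only beside their background. All 10 were found by symbol, and all 10 passed the filter on low counts, which left 16552 genes for testing.

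Polyadenylated RNA was sequenced from 24 mice, 3 in each of 8 groups. The groups were Control mice, mice with a conditional knockout of Nle1 (NlecKO), mice with a conditional knockout of Apc (ApccKO) and mice with both (ApccKO;NlecKO, called the double knockout). Each genotype was taken on day 1, 24 h after induction, and on day 2, 48 h after it. The labels give mice of 5 to 10 weeks and tamoxifen at 56 mg/kg on 3 consecutive days for all groups, controls included. The Cre driver and the alleles were not given in the sources used here, nor which crypt cells lost the genes.

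Nle1 encodes Notchless, a factor that takes part in the maturation of the large ribosomal subunit in the nucleus. When ribosome assembly is disturbed, unassembled ribosomal proteins can bind the ubiquitin ligase MDM2, and the transcription factor p53 then accumulates and switches on its target genes. APC belongs to the complex that marks beta-catenin for destruction, and its loss in crypts is known to drive Wnt target genes and cell division.

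Values below are CPM, counts relative to the total of the library, after scaling by the trimmed mean of M-values (TMM). Library totals were 17.86 to 26.47 M estimated counts (median 19.82 M). The Nle1 level was 20.1 to 27.9 CPM in Control and 34.2 to 39.9 CPM in ApccKO libraries. In NlecKO libraries it was 4.81 to 7.3 CPM, and in double knockout libraries 7.79 to 12.3 CPM, so each Nle1-lost library was below each Nle1-present library. Apc was at 112 to 158 CPM in all 24 libraries, and this whole-gene level does not check the Apc knockout. Among the 12 Apc-lost libraries, ApccKO replicates 2 and 3 and double knockout replicate 3 of day 1 stood apart, with lactase (Lct) at 295 to 455 CPM against 10.2 to 126 CPM in the other 9. The submitters' code numbers of the Apc-lost libraries form 1 run between 2 runs of Apc-intact ones. Within each Apc state the codes of day 1 come before those of day 2. A batch or drift along the codes thus cannot be told apart from Apc loss on either day, or from a change between the days. In these bulk samples, more RNA per cell and more cells of an expressing type cannot be told apart.

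The sequences upstream of 4 of the genes are shown because these genes differed in how they behaved. Abcb1b, Crip2 and Zfp365 were high in Nle1-lost crypts with Apc intact and lost, whereas Mcam was mainly high in the double knockout. Each run gives the 250 bases before the start site, 5′ to 3′ on the gene's strand, from RefSeq on GRCm38.p6. Capitals mark matches on either strand to CCAAT, to GGGCGG (a GC box), to TATAAA, to CACGTG (an E-box) and to the p53 half-site. The runs cover chr5:8797897-8798146 on the plus strand for Abcb1b, chr10:67912663-67912912 on the minus strand for Zfp365, chr12:113139986-113140235 on the plus strand for Crip2 and chr9:44134408-44134657 on the plus strand for Mcam. Crip2 has another start site with its own window.
Abcb1b: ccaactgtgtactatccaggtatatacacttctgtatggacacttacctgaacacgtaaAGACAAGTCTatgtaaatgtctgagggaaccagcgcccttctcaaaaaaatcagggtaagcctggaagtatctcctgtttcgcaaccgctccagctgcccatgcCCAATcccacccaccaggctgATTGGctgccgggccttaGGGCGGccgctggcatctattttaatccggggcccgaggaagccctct
Zfp365: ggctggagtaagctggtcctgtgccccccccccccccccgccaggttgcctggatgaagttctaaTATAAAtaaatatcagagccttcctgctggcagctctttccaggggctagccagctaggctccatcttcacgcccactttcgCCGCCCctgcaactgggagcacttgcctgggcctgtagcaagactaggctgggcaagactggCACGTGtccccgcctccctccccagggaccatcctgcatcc
Crip2: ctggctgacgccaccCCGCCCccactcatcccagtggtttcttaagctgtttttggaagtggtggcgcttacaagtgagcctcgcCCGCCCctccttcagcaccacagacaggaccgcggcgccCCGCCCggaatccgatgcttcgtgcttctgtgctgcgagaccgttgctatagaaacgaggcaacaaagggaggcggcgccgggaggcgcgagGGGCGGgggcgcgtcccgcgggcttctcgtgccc
Mcam: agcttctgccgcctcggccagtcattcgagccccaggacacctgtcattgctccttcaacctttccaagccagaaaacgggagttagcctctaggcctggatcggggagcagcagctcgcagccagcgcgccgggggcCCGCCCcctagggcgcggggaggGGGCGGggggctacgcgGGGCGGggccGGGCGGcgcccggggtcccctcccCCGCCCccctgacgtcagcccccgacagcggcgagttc

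RefSeq gave 9 windows of 300 bases (250 before the start site and 50 after) for 7 of the 10 genes, and none for Gulo, Gria3 and Slc4a11. GGGCGG was present in 6 of the 9 windows, against 35.7% of 32851 windows of all genes. CCAAT was present in 3 of the 9 windows, against 37.4% of all, and TATAAA in 2, against 13.6%. CACGTG also occurred in 2 of the 9 windows, against 7.15% of all. A p53 half-site was found in the Abcb1b window only, at position -191 from the start site, against 8.36% of all windows. Neither TGANTCA nor ATCAAAG, letters bound by AP-1 and by TCF/LEF factors, was found in the 9 windows, against 7.81% and 3.73% of all. The Mcam and Crip2 windows held 29 CG pairs each (72.7% and 66.3% G or C over 300 bases), whereas those of Abcb1b and Zfp365 held 12 and 8 (55% and 61.3%). These are matches of letters within short windows and say nothing of binding.

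**Figure D1:**
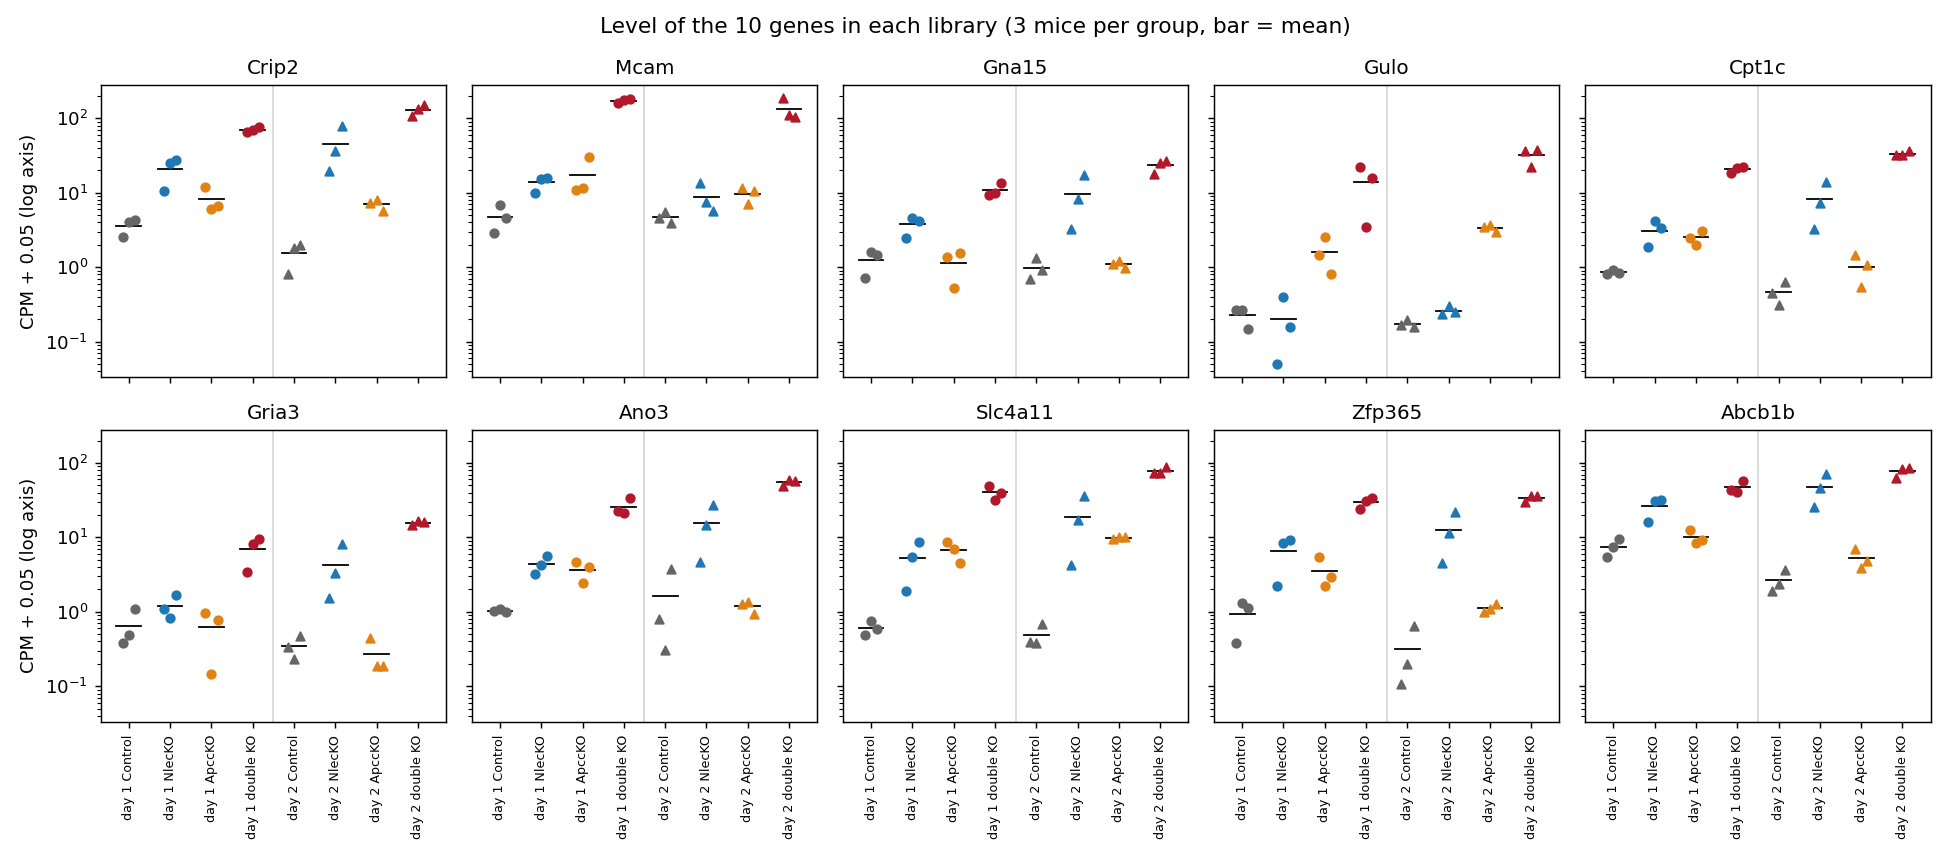
Level of each of the 10 genes in every library, as CPM plus 0.05 on a log axis, with circles for day 1, triangles for day 2 and a bar at the mean of 3 mice. Gna15 and Abcb1b were higher in all 12 Nle1-lost libraries than in any of the other 12; Gulo stayed near its floor in NlecKO, at 0 to 0.345 CPM, and reached 36.9 CPM in the double knockout.

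Across all groups, Gna15 and Abcb1b separated the 12 Nle1-lost libraries from the 12 others with no overlap. Crip2, Cpt1c and Gria3 were above every Nle1-present library in 11 of 12 Nle1-lost libraries, Ano3 and Zfp365 in 10, Slc4a11 in 8, Mcam in 6 and Gulo in 5. The highest library was a day 2 double knockout for all 10 genes. With the change written as log2 of the Nle1-lost over the Nle1-present level, the median of the 10 was 1.88 on day 1 and 4.03 on day 2 with Apc intact, and 3.08 and 4.34 with Apc lost. Over all tested genes these medians lay between 0 and 0.06. Past an adjusted p of 0.05, 5 of the 10 were called higher on day 1 and 8 on day 2 with Apc intact, and all 10 on each day with Apc lost. None was called lower. Of all tested genes, 0.87% were called higher and 1.61% lower with Apc intact on day 1 (2.48% in all), and 7.33% and 8.26% on day 2 (15.6% in all). With Apc lost these were 5.87% and 4.77% on day 1 (10.6% in all), and 19.5% and 15.4% on day 2 (34.9% in all). The genes were chosen on these same contrasts, so neither the counts nor the medians support anything. Without the 3 libraries that stood apart, the median change with Apc lost on day 1 was 2.54 (range 1.77 to 3.96) in place of 3.08 (2.24 to 3.58).

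Transporters and channels of the membrane came to 4 of the 10 genes. Abcb1b (ENSMUSG00000028970, GRCm38 chr5:8798147-8866315, plus strand) encodes a P-glycoprotein, an ATP-driven pump that expels drugs and other hydrophobic compounds from the cell. On day 1 it was at 5.36, 7.33 and 9.35 CPM in Control and at 16.2, 30.4 and 32 CPM in NlecKO. On day 2 the 3 Control libraries were at 1.86, 2.3 and 3.64 CPM and the NlecKO libraries at 25.8, 46.4 and 70.3 CPM. Each NlecKO library was above each Control library on both days, and the gap was wider on day 2, when Control was lower and NlecKO higher than the day before. In ApccKO the levels were 12.4, 8.28 and 9.32 CPM on day 1 and 6.85, 3.83 and 4.84 CPM on day 2. The double knockout reached 43.5, 41.1 and 57.7 CPM on day 1 and 63.2, 84 and 85.5 CPM on day 2. Again no libraries overlapped. The log2 change with Nle1 loss was 1.83 ± 0.35 (SE, 3 against 3 mice) and 4.2 ± 0.39 with Apc intact on day 1 and day 2. It was 2.24 ± 0.34 and 3.90 ± 0.37 with Apc lost, and 1.77 with Apc lost on day 1 without the 3 libraries that stood apart. Changes in the 2 Apc states differed by 0.41 ± 0.48 on day 1 and -0.30 ± 0.51 on day 2.

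Abcb1a, the neighbouring gene for a near relative of the same pump and the main form of the mouse intestine, was read beside it. Its level was 197 to 399 CPM in Control and 281 to 523 CPM in NlecKO on day 1, and 120 to 362 and 324 to 458 CPM on day 2, so these libraries overlapped on both days. Abcb1a, tested with edgeR (quasi-likelihood, Benjamini-Hochberg adjusted), was not called for Nle1 loss on day 1 with Apc intact (log2 change 0.47 ± 0.46, adjusted p = 0.63), nor in the other 3 comparisons. With Apc lost on day 2 it was at 43.4, 92.9 and 42.9 CPM in ApccKO and at 123, 127 and 145 CPM in the double knockout, with no overlap (log2 change 1.14 ± 0.47, adjusted p = 0.07). Over 13 alternatives that adjusted p was 0.028 to 0.21, and the gene was called by DESeq2 and without ApccKO replicate 2 (1.61). On day 2 Abcb1a fell with Apc loss, from a mean of 270 to 59.7 CPM (log2 change -2.18, adjusted p = 0.00095). The enterocyte markers moved in the same direction there: their summed level was 6850 to 25600 CPM in Control and 1980 to 3730 CPM in ApccKO on day 2, and the part of these cells in the Abcb1a result was not tested. Of the 31-base words of the Abcb1b transcripts, 14.8% also occur in Abcb1a, so part of the reads of this pair may have been divided between them by the authors' counting. Abcb1b also shares 143 exon bases with Gm5106, an antisense gene, and reads there cannot be told apart without strand.

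**Figure D2:**
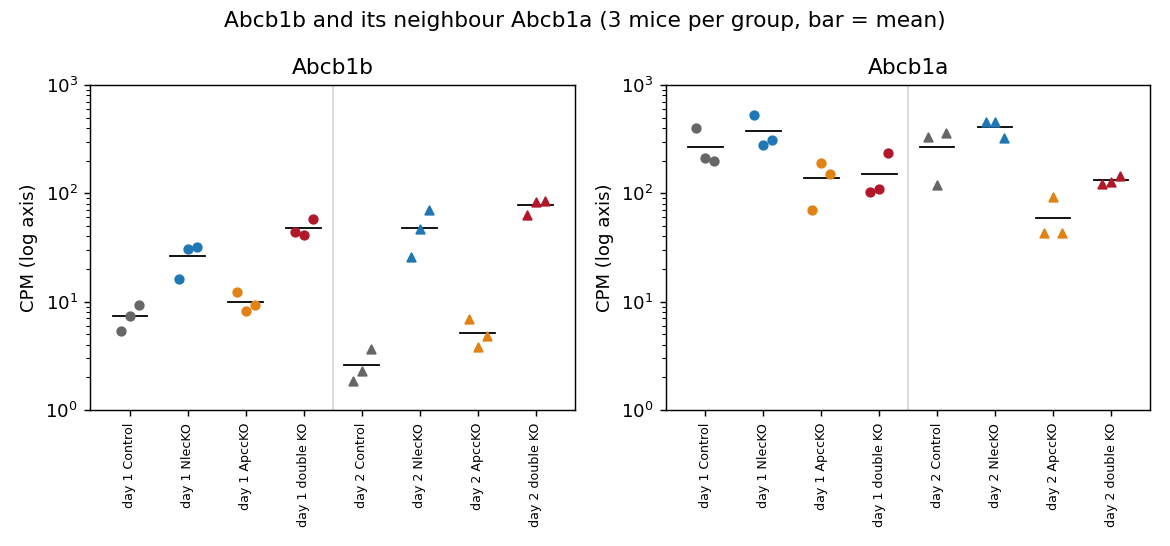
CPM of Abcb1b and of its neighbour Abcb1a in every library on the same log axis, with circles for day 1, triangles for day 2 and a bar at the mean of 3 mice. Abcb1b was at 1.86 to 12.4 CPM with Nle1 present and at 16.2 to 85.5 CPM with Nle1 lost, whereas the Abcb1a libraries lay between 42.9 and 523 CPM.

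Slc4a11 (ENSMUSG00000074796, GRCm38 chr2:130684113-130697519, minus strand) belongs to the bicarbonate transporter family and carries protons and other ions, best known from the corneal endothelium. It was near silent in Control, at 0.437, 0.711 and 0.541 CPM on day 1 and 0.349, 0.334 and 0.643 CPM on day 2. In NlecKO it was at 1.86, 5.37 and 8.52 CPM and then at 4.27, 17 and 35.5 CPM. Every NlecKO library lay above every Control library, with a wide spread among the NlecKO mice. Levels in ApccKO were 8.58, 6.84 and 4.53 CPM on day 1 and 9.45, 10.2 and 10 CPM on day 2. The double knockout had 49.7, 32 and 39.1 CPM on day 1 and 73.1, 73.2 and 87 CPM on day 2. Loss of either gene alone thus went with a level above Control, and loss of both with the highest. With Nle1 loss the log2 change was 3.22 ± 0.72 and 5.44 ± 0.71 with Apc intact, and 2.59 ± 0.52 (2.24 without the 3 libraries that stood apart) and 2.97 ± 0.52 with Apc lost. On day 2 the change was smaller with Apc lost than with Apc intact by 2.47 ± 0.89.

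Ano3 (ENSMUSG00000074968, GRCm38 chr2:110655201-110950923, minus strand) encodes anoctamin 3, a member of the family of calcium-activated channels and lipid scramblases, best known from the brain. Control levels were 0.984, 1.04 and 0.935 CPM on day 1 and 0.756, 0.26 and 3.75 CPM on day 2. NlecKO levels were 3.19, 4.24 and 5.65 CPM on day 1 and 4.64, 14.8 and 26.9 CPM on day 2. Control replicate 3 of day 2 was far above the other Control libraries and close to the lowest NlecKO library. ApccKO was at 4.63, 2.41 and 3.91 CPM and then at 1.21, 1.31 and 0.884 CPM, and the double knockout at 22.3, 21.3 and 33.9 CPM and then at 48.5, 59.8 and 56.6 CPM. The log2 change with Nle1 loss was 2.14 ± 0.69 and 3.35 ± 0.64 with Apc intact, and 2.82 ± 0.58 (2.23 without the 3 libraries that stood apart) and 5.59 ± 0.68 with Apc lost. Leaving out Control replicate 3 of day 2 moved the second of these from 3.35 to 5.04. Of the Ano3 exon bases, 61 are shared with Muc15, a gene on the other strand, and reads there cannot be told apart without strand.

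Gria3 (ENSMUSG00000001986, GRCm38 chrX:41400854-41678601, plus strand) encodes a subunit of the AMPA receptor, the ion channel of fast glutamate signalling between neurons. It was the least abundant of the 10 genes per transcript length in the double knockout, at a mean of 2.08 TPM (a level scaled by transcript length) on day 1 and 4.51 TPM on day 2. Control libraries were at 0.328, 0.438 and 1.03 CPM on day 1 and 0.291, 0.185 and 0.428 CPM on day 2. NlecKO libraries were at 1.04, 0.789 and 1.62 CPM, overlapping with Control, and on day 2 at 1.49, 3.24 and 8.02 CPM, without overlap. ApccKO libraries were at 0.908, 0.0963 and 0.721 CPM and then at 0.39, 0.135 and 0.14 CPM, the lowest holding 3 estimated counts or fewer. The double knockout was at 3.41, 7.99 and 9.6 CPM on day 1 and 14.5, 16.7 and 16.2 CPM on day 2. Summed over 3 mice on day 2 these are 971 counts against 15 in ApccKO, a ratio of CPM without TMM scaling of 63.7 (95% exact interval 38.4 to 114, counting error only). The log2 change was 0.91 ± 0.68 and 3.86 ± 0.69 with Apc intact, and 3.58 ± 0.62 (2.63 without the 3 libraries that stood apart) and 6.10 ± 0.70 with Apc lost. The last is the highest change of the 10 genes in any of the 4 comparisons. The first was 1.57 without Control replicate 3 of day 1. Gria3 also shares 85 exon bases with Gm22413, an annotated miRNA on the same strand.

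Gria3, Ano3 and Cpt1c are best known from neurons, and markers of other cell types were read beside them. Of 10 markers of neurons and glia 6 passed the filter, with a summed level of 6.53 to 9.35 CPM in Control and 9.59 to 15.1 CPM in NlecKO over both days. It was 8.79 to 11.1 CPM in ApccKO and 11.5 to 14.7 CPM in the double knockout. Under Nle1 loss 1 of the 6 was higher on each day with Apc intact, and 0 and 2 on day 1 and day 2 with Apc lost, with none lower. Among the neuron and glia markers that did not pass, Sox10 was at 0.0991 CPM and Gfap at 0.195 CPM at most. The summed level of 12 enteroendocrine markers was 622 to 938 CPM in Control and 1120 to 1550 CPM in NlecKO. It was 560 to 773 CPM in ApccKO, 794 to 906 CPM in the day 1 double knockout and 994 to 1220 CPM on day 2, so it moved with Nle1 loss. Of these 12, 2 and 5 were higher with Apc intact on day 1 and day 2, and 0 and 7 with Apc lost, with 2 lower on the last. Of 10 stem cell markers, 0 and 3 were lower with Apc intact, and 5 and 9 with Apc lost. Of all tested genes, 0.87% and 7.33% were called higher with Apc intact (day 1 and day 2), and 5.87% and 19.5% with Apc lost. Those called lower were 1.61% and 8.26% with Apc intact, and 4.77% and 15.4% with Apc lost. The part of these cell types in the levels of the 3 genes, or of the other 7, was not tested.

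Signalling and adhesion at the cell surface are represented by Gna15 and Mcam. Gna15 (ENSMUSG00000034792, GRCm38 chr10:81502306-81524225, minus strand) encodes an alpha subunit of the Gq class, which couples receptors to phospholipase C and is known mainly from blood cells. In Control it was at 0.656, 1.53 and 1.43 CPM on day 1 and 0.64, 1.26 and 0.857 CPM on day 2. In NlecKO it was at 2.44, 4.58 and 4.13 CPM and at 3.22, 8.13 and 17.4 CPM. ApccKO libraries, at 1.32, 0.481 and 1.49 CPM and at 1.04, 1.17 and 0.93 CPM, lay within the range of Control or just below it. The double knockout reached 9.34, 9.9 and 13.3 CPM on day 1 and 17.9, 25.3 and 26.5 CPM on day 2. Nle1 loss went with a log2 change of 1.62 ± 0.50 and 3.35 ± 0.50 with Apc intact, and of 3.30 ± 0.49 (2.86 without the 3 libraries that stood apart) and 4.46 ± 0.50 with Apc lost. The summed level of immune markers was 198 to 375 CPM in Control and 200 to 370 CPM in NlecKO on day 1, and 263 to 430 and 357 to 464 CPM on day 2. It was 61.9 to 125 CPM in ApccKO and 87.3 to 103 CPM in the double knockout on day 1. On day 2 it was 40.3 to 47.2 CPM in ApccKO and 80 to 98.1 CPM in the double knockout, where 7 of 11 tested markers were higher and none lower. Of all tested genes, 19.5% were called higher and 15.4% lower in that comparison. None of the 11 was called for Nle1 loss in the other 3 comparisons, where 2.48% to 15.6% of all tested genes were called. The part of immune cells in the Gna15 level was not tested.

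Mcam (ENSMUSG00000032135, GRCm38 chr9:44134469-44142727, plus strand) encodes CD146, an adhesion molecule of the immunoglobulin family found on endothelial cells, pericytes and melanoma cells. On day 1 it was at 2.84, 6.73 and 4.53 CPM in Control and at 10, 15.4 and 15.8 CPM in NlecKO. On day 2 the levels were 4.48, 5.53 and 3.86 CPM in Control and 13.3, 7.55 and 5.59 CPM in NlecKO. The second of these gaps was narrow, with 5.53 CPM in the highest Control and 5.59 CPM in the lowest NlecKO library. ApccKO libraries were at 10.8, 11.4 and 29.8 CPM and then at 11.7, 7.04 and 10.4 CPM. The double knockout stood at 160, 178 and 180 CPM on day 1 and 186, 111 and 103 CPM on day 2, so it exceeded every other group by a wide margin. The log2 change with Nle1 loss was 1.55 ± 0.43 and 0.89 ± 0.43 (0.5 without NlecKO replicate 1 of day 2) with Apc intact, against 3.32 ± 0.40 (3.96 without the 3 libraries that stood apart) and 3.78 ± 0.41 with Apc lost. It was larger with Apc lost by 1.77 ± 0.57 on day 1 and by 2.89 ± 0.58 on day 2.

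Markers of cells that carry CD146, and of stroma, were measured beside Mcam. Of 10 stromal markers 7 passed the filter. Their summed level was 26.2 to 30.8 CPM in Control and 46.3 to 62.7 CPM in NlecKO on day 1. On day 2 it was 8.71 to 16 CPM in ApccKO and 22.2 to 38.9 CPM in the double knockout. Libraries overlapped in the other comparisons of Nle1 loss. With Apc intact, 1 and 0 of the 7 were higher on day 1 and day 2. With Apc lost 1 and 4 were, and none was lower. Of 10 endothelial markers 6 passed the filter, and their summed level ran from 6 to 26.5 CPM over all groups, with 12.1 to 18.4 CPM in the double knockout and 14.7 to 26.5 CPM in ApccKO. Under Nle1 loss on day 2, 1 of the 6 was higher with Apc intact, and 1 was higher and 2 lower with Apc lost. None of them was called on day 1. Cdh5 and Kdr, among the endothelial markers that did not pass, were at 0.424 and 0.292 CPM at most in any library. Of 8 smooth muscle and pericyte markers 4 passed, with a summed level of 15.2 to 21.4 CPM in the day 2 double knockout, 5.93 to 9.28 CPM on day 1 and 1.8 to 5.47 CPM in the other groups. The 4 that passed were Acta2, Tagln, Rgs5 and Cspg4. Myh11, Cnn1, Des and Actg2, which did not pass, reached 0.594 CPM at most. The summed level of smooth muscle and pericyte markers was thus highest in the day 2 double knockout. Mcam was at 103 to 186 CPM there and at 160 to 180 CPM in the day 1 double knockout. With Apc lost, 1 of the 4 markers that passed was called higher under Nle1 loss on each day, and none lower. Of all tested genes, 5.87% and 19.5% were called higher in these comparisons, and 4.77% and 15.4% lower. With Apc intact the shares were 0.87% and 7.33% higher, and 1.61% and 8.26% lower. The part of endothelial, muscle, pericyte or stromal cells in the Mcam level was not tested.

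Crip2 and Zfp365 encode proteins with zinc-binding domains. Crip2 (ENSMUSG00000006356, GRCm38 chr12:113140236-113145506, plus strand) is a cysteine-rich protein with LIM domains, known from heart and vessels. It was at 2.51, 3.94 and 4.23 CPM in Control and 10.4, 25.2 and 27.5 CPM in NlecKO on day 1. On day 2 it was at 0.756, 1.74 and 1.93 CPM in Control and 19.3, 35.9 and 79.9 CPM in NlecKO. No library of one group reached the other on either day. ApccKO levels were 12, 6.02 and 6.59 CPM and then 7.29, 7.94 and 5.72 CPM. The double knockout had 64.7, 68.8 and 76.8 CPM on day 1 and 108, 135 and 149 CPM on day 2. Per transcript length, Crip2 was the most abundant of the 10 genes in the day 2 double knockout, at a mean of 128 TPM. The log2 change was 2.56 ± 0.48 and 4.90 ± 0.53 with Apc intact, and 3.09 ± 0.45 (2.46 without the 3 libraries that stood apart) and 4.22 ± 0.47 with Apc lost.

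Zfp365 (ENSMUSG00000037855, GRCm38 chr10:67886103-67912662, minus strand) encodes a zinc finger protein linked to the stability of replication forks and telomeres. Its Control levels were 0.328, 1.26 and 1.08 CPM on day 1 and 0.0582, 0.148 and 0.589 CPM on day 2. Its NlecKO levels were 2.2, 8.28 and 9.31 CPM and 4.52, 11.5 and 21.8 CPM. All NlecKO libraries were above all Control libraries, which on day 2 held 16 estimated counts in all against 887 in NlecKO, a ratio of CPM without TMM scaling of 50.2 (95% exact interval 30.7 to 88.2, counting error only). In ApccKO it was at 5.45, 2.17 and 2.93 CPM on day 1 and 0.954, 1.04 and 1.21 CPM on day 2. In the double knockout it was at 23.8, 31.1 and 33.6 CPM and 29.7, 36.2 and 36.4 CPM. Both knockouts of Nle1 thus stood above their counterparts with Nle1 present, on each day. The log2 change was 2.88 ± 0.63 and 5.59 ± 0.74 with Apc intact, and 3.06 ± 0.55 (2.33 without the 3 libraries that stood apart) and 4.99 ± 0.62 with Apc lost. The second of these, 5.59, was 6.75 without Control replicate 3 of day 2, which holds 11 of the 16 Control counts.

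Cpt1c and Gulo encode proteins of metabolism. Cpt1c (ENSMUSG00000007783, GRCm38 chr7:44959372-44974851, minus strand) is the form of carnitine palmitoyltransferase 1 known from neurons, where it lies in the endoplasmic reticulum and has little of the enzyme activity of Cpt1a and Cpt1b. In Control it was at 0.765, 0.875 and 0.787 CPM on day 1 and 0.407, 0.26 and 0.589 CPM on day 2. In NlecKO it was at 1.8, 4.09 and 3.29 CPM and 3.22, 7.22 and 14.1 CPM. ApccKO libraries had 2.41, 1.93 and 3.04 CPM and 1.39, 0.496 and 1.02 CPM. The double knockout had 18.3, 21.7 and 22.2 CPM on day 1 and 32.1, 31.9 and 35.9 CPM on day 2, with no overlap with ApccKO and little spread among mice. The log2 change was 1.92 ± 0.46 and 4.33 ± 0.49 with Apc intact, and 3.08 ± 0.39 (3.04 without the 3 libraries that stood apart) and 5.09 ± 0.44 with Apc lost. An antisense gene, 6530437J22Rik, shares 366 exon bases with Cpt1c, and reads there cannot be told apart without strand.

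Gulo (ENSMUSG00000034450, GRCm38 chr14:65986786-66009207, minus strand) encodes L-gulonolactone oxidase, the last enzyme of vitamin C synthesis, which in mice takes place mainly in liver. With Apc intact it was near a floor of 3 counts whether Nle1 was present or not. On day 1 the 3 Control libraries held 4, 4 and 2 estimated counts and the NlecKO libraries 0, 7 and 2; on day 2 they held 2, 4 and 2, and 3, 6 and 5. As CPM without TMM scaling, the ratio of their summed levels was 0.841 on day 1 (95% exact interval 0.302 to 2.3, counting error only). It was 1.58 on day 2 (0.62 to 4.36, likewise). Both intervals include 1, so these sums resolved no difference at this depth. On day 2 each NlecKO library (0.186, 0.249 and 0.203 CPM) was above each Control library (0.116, 0.148 and 0.107 CPM), at 6 counts or fewer. With Apc lost, ApccKO was at 1.41, 2.5 and 0.772 CPM on day 1 and 3.47, 3.65 and 2.88 CPM on day 2. The double knockout was at 22.2, 3.4 and 15.5 CPM on day 1 and 36.8, 21.8 and 36.9 CPM on day 2. The Apc-intact libraries thus held 7 counts at most and the Apc-lost ones 15 at least. On day 1 and day 2 each double knockout library was above each ApccKO library. With Apc lost the log2 change with Nle1 loss was 3.12 ± 0.52 (3.17 without the 3 libraries that stood apart) and 3.25 ± 0.49.

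**Figure D3:**
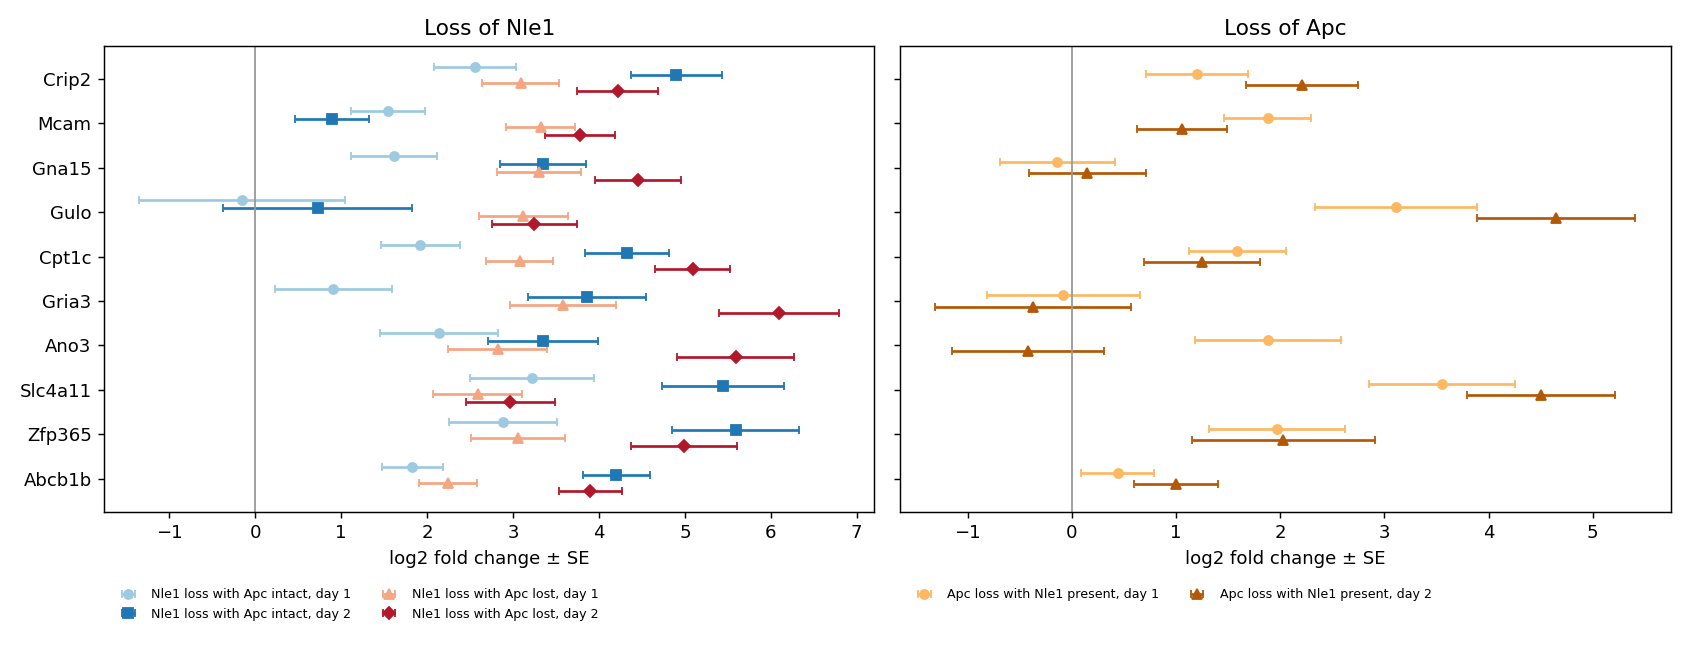
Log2 change of the 10 genes with its SE, under loss of Nle1 (left, by Apc state and day) and under loss of Apc with Nle1 present (right, by day), 3 against 3 mice each. Under Nle1 loss with Apc intact, Mcam reached 1.55 and 0.89 and the Gulo values rest on counts near the floor; under Apc loss, Slc4a11 and Gulo lay between 3.11 and 4.65.

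Apc loss with Nle1 present was not used to choose the genes, although its Control and ApccKO libraries were also the Nle1-present side of that choice. Genes picked for low levels in those libraries are not an independent choice here, so the counts below support nothing about the set. The change and adjusted p of each gene below carry the same limit, also where a call held in each alternative, since the alternatives reuse these libraries. The test was the edgeR quasi-likelihood method over all 16552 genes. On day 1, 7 of the 10 genes rose and none fell, with 24.7% of all tested genes called higher and 25% lower (49.7% in all). On day 2, 5 rose and none fell, against 29.2% and 29.4% (58.7% in all). The median log2 change of the 10 was 1.74 on day 1 and 1.16 on day 2, against -0.01 and 0.01 over all tested genes. Groups did not overlap for 7 genes on day 1 and 6 on day 2, each with ApccKO the higher. Of all tested genes, 29.6% on day 1 and 32.5% on day 2 had every ApccKO library above every Control library, and 49.7% and 58.7% were called.

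Slc4a11 and Gulo rose on both days and stayed called in each alternative that was run. Slc4a11 rose by a log2 change of 3.55 on day 1 (edgeR adjusted p = 0.00055) and 4.5 on day 2 (adjusted p = 3.9e-05). Gulo rose by 3.11 (adjusted p = 0.0031) and 4.65 (adjusted p = 4.2e-05), from sums of 10 and 8 counts in Control to 98 and 223 in ApccKO. The ratio of the Gulo sums, as CPM without TMM scaling, was 9.84 (95% exact interval 5.13 to 21.2) on day 1 and 30 (14.9 to 70.3) on day 2, for counting error only. Crip2 rose by 1.20 on day 1 (adjusted p = 0.048), a call lost in 5 of 14 alternatives. Its day 2 rise of 2.21 (adjusted p = 0.002) was called in all 13 alternatives run. Mcam rose by 1.88 on day 1 (adjusted p = 0.0015), and its day 2 rise was 1.06 (adjusted p = 0.041). Its day 1 change fell to 1.26 without ApccKO replicate 3, the library at 29.8 CPM, and its day 2 call was lost in 8 of 13 alternatives.

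The remaining calls of the main fit were on a single day each. Cpt1c rose on day 1 by 1.59 (edgeR adjusted p = 0.0086). Its day 2 value was 1.25 (adjusted p = 0.064), called in 5 of 13 alternatives. Ano3 rose on day 1 by 1.88 (adjusted p = 0.032), a call lost in 7 of 14 alternatives. Its day 2 value was -0.42 (adjusted p = 0.65), which became 1.27 without Control replicate 3. Zfp365 rose on day 1 by 1.97 (adjusted p = 0.017), a call lost in 2 of 14 alternatives. Its day 2 value was 2.03 (adjusted p = 0.057), called in 6 of 13 alternatives, among them 3.18 without Control replicate 3. Abcb1b was not called on day 1 (0.44, adjusted p = 0.31) and rose on day 2 by 1.0 (adjusted p = 0.038), a call lost in 5 of 13 alternatives. Neither Gna15 (-0.14 and 0.15, adjusted p = 0.85 and 0.84) nor Gria3 (-0.08 and -0.37, adjusted p = 0.94 and 0.76) was called on either day.

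Leaving out the 3 libraries that stood apart leaves 1 ApccKO library on day 1, which is then assumed to vary like the other groups. In that fit 4 of the 10 genes were called on day 1. These were Crip2 (1.77, edgeR adjusted p = 0.043), Gulo (2.97, adjusted p = 0.03), Slc4a11 (3.93, adjusted p = 0.0043) and Zfp365 (2.62, adjusted p = 0.021). The calls of Mcam (1.22, adjusted p = 0.061), Cpt1c (1.58, adjusted p = 0.071) and Ano3 (2.24, adjusted p = 0.07) were lost. The difference between the days in the Apc effect was called for none of the 10 genes by edgeR or DESeq2 (1 at an unadjusted edgeR p under 0.05), against 1.13% of all tested genes (0.526% higher and 0.604% lower). It ran from -2.30 for Ano3 to 1.54 for Gulo, so a gene called on 1 day only was not shown to differ between the days.

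The 10 genes also varied together among mice of the same group, apart from Mcam and Gulo. In the day 2 NlecKO group, replicate 3 was the highest library for 8 genes and replicate 1 the lowest for 9, as with Crip2 at 19.3, 35.9 and 79.9 CPM. Mcam had the reverse order there. The day 1 NlecKO replicate 1 was likewise the lowest for 9 of the 10 genes. Pearson's r between pairs of the 8 genes other than Mcam and Gulo, over 24 libraries, was 0.75 to 0.98 (median 0.93, 28 pairs). After subtraction of the group means it was 0.42 to 0.90 (median 0.70). For the 9 pairs with Mcam the latter was -0.34 to 0.01, and for those with Gulo -0.41 to 0.37. The set of 8 was separated after its values were seen, these pairs share their libraries, and the correlations are descriptive.

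Cdkn1a, which encodes the cell cycle inhibitor p21 and is a standard p53 target, had the same order of mice in the day 2 NlecKO group, at 362, 497 and 704 CPM. Its deviations from the group means correlated with those of the 8 genes at an r of 0.49 to 0.70, with those of Mcam at -0.42 and with those of Gulo at 0.14 (24 libraries). The level of Nle1 itself in these 3 mice was 7.3, 5.52 and 7.25 CPM. In the double knockout it was 12.3, 8.66 and 7.79 CPM on day 1 and 11, 9.6 and 8.83 CPM on day 2, highest in replicate 1 on both days. Its deviations correlated with those of the 8 genes at -0.39 to 0.13, with Mcam at 0.17 and with Gulo at 0.29, and the part of remaining Nle1 in the order of mice was not tested. Sex, read from Y-linked genes, moved with the order too. In the Nle1-lost groups the lowest library was from a male in 31 of 40 combinations of gene and group, with 5 males among 12 mice. In the Nle1-present groups it was in 21 of 40, with 4 males among 12. The 10 genes share these mice, so the combinations are not independent. NlecKO replicate 2 of day 2, also a male, was the lowest library for 0 genes. With a term for sex in the model, the Crip2 change under Nle1 loss with Apc intact was 2.52 and 5.07, against 2.56 and 4.90 without it, and no direction under Nle1 loss turned in any of the 10 genes.

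**Figure D4:**
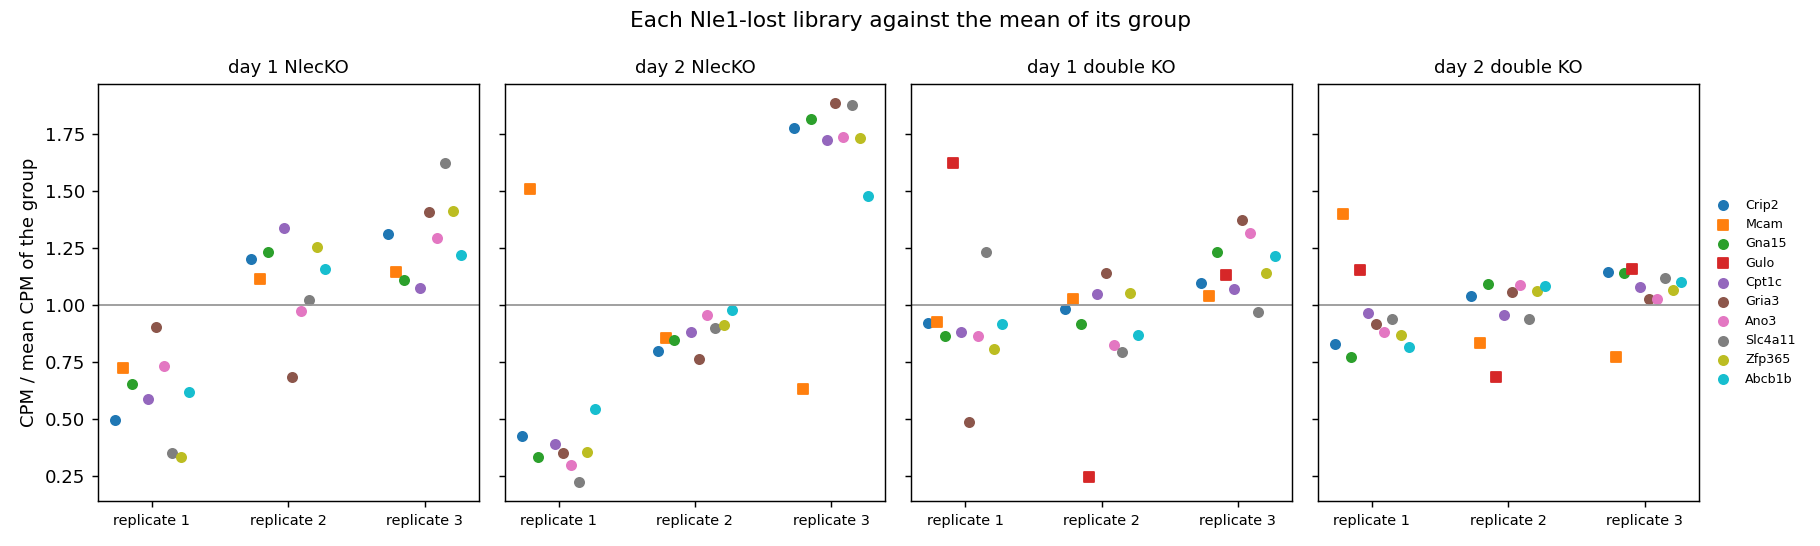
CPM of each gene in each Nle1-lost library divided by the mean of its group, with squares for Mcam and Gulo and circles for the other 8 genes; Gulo is left out of the NlecKO panels, where it was near its floor. In the day 2 NlecKO panel the 8 circles lie together in each mouse, lowest in replicate 1 and highest in replicate 3, and Mcam lies in the reverse order.

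The genes with the most similar course were sought over 24 libraries among 11777 genes with a mean of at least 1 CPM. Crip2 was most like Phlda3 (r = 0.992) and Bax (0.989), and Zfp365 like Phlda3 (0.985) and Psrc1 (0.984). Abcb1b was most like Gdf15 (0.991) and Zmat3 (0.986). Cpt1c followed Cox6b2 (0.977), Gria3 followed Polk (0.965), Ano3 followed Tnfrsf10b (0.956) and Gna15 followed Orai2 (0.98). Of the 30 places among the closest genes, 3 for each of the 10, 11 went to entries of a list of 35 p53 targets that holds none of the 10 genes itself. These are the libraries by which the 10 genes were chosen, so nothing is read from that count. The 3 closest genes of Mcam (Pla2r1 at 0.917, Slc27a3, and Lrdd), of Gulo (Ccdc92 at 0.977, Paox, and Adam15) and of Slc4a11 (Fosl1 at 0.983, Slc25a48, and Areg) were not on that list. The list of 35 is not complete, so absence from it does not show that a gene, such as Lrdd, is no p53 target. Fosl1 encodes a subunit of AP-1 and Areg the growth factor amphiregulin.

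Known p53 targets were described beside the 10 genes in the same comparisons. The list was drawn up with earlier results of these data known, so its counts and shares are not independent of them. Of 35 on the list 32 were tested, and 20 rose on day 1 and 26 on day 2 with Nle1 loss and Apc intact. With Apc lost, 28 and 29 rose, and none fell in any of the 4 comparisons. On day 1 with Apc intact, 10 were called without Control replicate 3, 11 without NlecKO replicate 3 and 2 in a fit of only these 6 libraries. On day 1 with Apc lost, 4 were called without the 3 libraries that stood apart. The share of all tested genes called higher was 0.87%, 7.33%, 5.87% and 19.5%. The median log2 change of the list was 0.75, 1.47, 1.42 and 2.26, against 0 to 0.06 over all tested genes. Ephx1, which encodes an epoxide hydrolase, rose from 47 to 250 CPM on day 2 with Apc intact (log2 change 2.41 ± 0.16, edgeR adjusted p = 3.2e-08). Eda2r, a receptor of the tumour necrosis factor family, rose from 3.14 to 46 CPM (3.85 ± 0.32, adjusted p = 1e-06). With Apc loss and Nle1 present, 7 of the 32 were higher and 7 lower on day 1, against 24.7% and 25% of all tested genes. On day 2, 8 were higher and 6 lower, against 29.2% and 29.4%. The 14 calls of day 1 were 5 without Control replicate 1, 6 without ApccKO replicate 1, and 9 without Control replicate 2 or ApccKO replicate 3. Fas, a death receptor, fell there on both days (-1.82 ± 0.27, adjusted p = 3.1e-05, and -1.75 ± 0.28, adjusted p = 2.2e-05).

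Relatives of the 10 genes, that is members of the same families or pathways, were read in the same comparisons. Of 45 such genes 33 were tested. With Apc intact, none rose and 1 fell on day 1, where 0.87% of all tested genes were higher and 1.61% lower. On day 2, 3 rose and 3 fell, against 7.33% and 8.26%. With Apc lost, 2 rose and 2 fell on day 1, against 5.87% and 4.77%. On day 2, 15 rose and 4 fell, where 19.5% of all tested genes were higher and 15.4% lower. In fits of only the compared libraries, 0 and 1 relatives were called with Apc intact on day 1 and day 2, and 0 and 25 with Apc lost. The 4 calls of day 1 with Apc lost were 0 without double knockout replicate 3 or without the 3 libraries that stood apart, 1 or 2 without each ApccKO library, and 8 without double knockout replicate 2. Among relatives of Crip2, the LIM protein Csrp2 fell in all 4 comparisons, for example from 69.2 to 41 CPM on day 2 with Apc intact (-0.76 ± 0.11, edgeR adjusted p = 2e-04). Bcam, an adhesion molecule related to Mcam, rose on day 2 with Apc intact from 6.64 to 10.8 CPM (0.71 ± 0.15, adjusted p = 0.0041). Of the anoctamins related to Ano3, the chloride channel Ano1 rose on day 1 with Apc lost from 3.11 to 10.9 CPM (1.80 ± 0.43, adjusted p = 0.013). Ano8 fell on day 2, from 47.9 to 18.3 CPM with Apc lost (-1.38 ± 0.16, adjusted p = 2e-06). The relatives of Cpt1c, which handle fatty acid import into mitochondria and peroxisomes, held no gene called on day 1 in either Apc state. On day 2 with Apc lost, 4 of the 6 tested rose. Crot, the carnitine acyltransferase of peroxisomes, rose by 1.43 (edgeR adjusted p = 0.002) and Crat by 1.04 (adjusted p = 0.025). Cpt2 rose by 0.63 (adjusted p = 0.0044) and the carnitine carrier Slc25a20 by 0.64 (adjusted p = 0.012). In these libraries goblet cell markers had a summed level of 1900 to 2700 CPM in ApccKO and 4690 to 5980 CPM in the double knockout. Enterocyte markers were at 1980 to 3730 CPM and 3590 to 6820 CPM, with overlap. The part of these cells in the rise of the 4 genes was not tested.

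The relatives were also read under Apc loss. On day 1, 4 of 33 rose and 17 fell, and on day 2, 7 rose and 20 fell, where 24.7% and 25% of all tested genes were higher and lower on day 1 and 29.2% and 29.4% on day 2. All 6 tested relatives of Cpt1c fell on day 2, among them Cpt2, the inner membrane enzyme of the carnitine route, from 181 to 51.4 CPM (-1.82 ± 0.16, edgeR adjusted p = 2.5e-08). On day 1 Cpt1a, the main liver and gut form, fell from 287 to 87.2 CPM (-1.72 ± 0.19, adjusted p = 1.3e-06). Gna11, a Gq class subunit like Gna15, fell from 794 to 175 CPM on day 2 (-2.18 ± 0.23, adjusted p = 2.3e-07). Slc4a4, the sodium bicarbonate cotransporter, fell from 152 to 44.4 CPM (-1.77 ± 0.17, adjusted p = 6.9e-08). The enterocyte markers, lower there as well, were given beside Abcb1a, and their part in these changes was not tested.

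The nearest protein-coding genes on either side, by the GENCODE M21 annotation on GRCm38, were also read. Of 20 such neighbours 16 were tested. With Nle1 loss and Apc intact, none was called on day 1 by edgeR or DESeq2 (4 at an unadjusted p under 0.05), and 2 rose and 3 fell on day 2. With Apc lost, 1 rose and 1 fell on day 1, and 3 rose and 1 fell on day 2. Of all tested genes, 2.48% and 15.6% were called with Apc intact on day 1 and day 2, and 10.6% and 34.9% with Apc lost. Of the neighbours these shares were 0%, 31.2%, 12.5% and 25%. In fits of only the compared libraries, 5 neighbours were called with Apc lost on day 2 and 0 in each other comparison. Without NlecKO replicate 3 the 5 calls of day 2 with Apc intact were 1, and 2 without NlecKO replicate 2 or Control replicate 2. Both calls of day 1 with Apc lost were gone without the 3 libraries that stood apart, without ApccKO replicate 2 and without double knockout replicate 1 or 3. The 4 calls of day 2 with Apc lost were 0 without double knockout replicate 3, 1 without ApccKO replicate 3 and 2 without ApccKO replicate 1. Crip1 lies 810 bases from Crip2 and encodes a related LIM protein. It was at a mean of 311 CPM in Control and 440 CPM in NlecKO on day 2 and was not called (0.50 ± 0.38, adjusted p = 0.43). Rtkn2, next to Zfp365, fell on day 2 from 1.31 to 0.329 CPM (-1.96 ± 0.43, adjusted p = 0.0043).

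Clu, 5239 bases from Gulo, encodes the chaperone clusterin, known from regenerating intestine. Under Apc loss it rose from a mean of 2.97 to 37.6 CPM on day 1 (3.66 ± 0.49, edgeR adjusted p = 1.9e-05) and from 3.08 to 264 CPM on day 2 (6.39 ± 0.53, adjusted p = 3.3e-08), days on which Gulo also rose. On day 1 it was at 60.5, 32.3 and 20.1 CPM in ApccKO. Its levels with both genes lost were 134, 80.3 and 73 CPM on day 1 and 288, 216 and 230 CPM on day 2. With Apc lost it rose on day 1 with Nle1 loss from 37.6 to 95.8 CPM (1.35 ± 0.41, adjusted p = 0.045), a call lost without the 3 libraries that stood apart, and Gulo was higher there too. On day 2 the Clu levels overlapped with ApccKO, at 214, 248 and 328 CPM, whereas Gulo was higher in each double knockout library than in each ApccKO library. Under Nle1 loss with Apc intact on day 2, Clu rose from 3.08 to 12.7 CPM (2.04 ± 0.48, adjusted p = 0.0084), while Gulo remained near its floor. The courses of these neighbours were not tested against each other.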

How the data were processed

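The members and gene lists were chosen with earlier results of these data known. The authors deposited estimated counts per gene (expected counts) and TPM values for 24 crypt libraries, each from 1 mouse per the series design. The submitters' processing notes name kallisto 0.43, mm9, DESeq2 and DESeq. The annotation release, the summing to genes and the use of strand were not given in the sources used here. Deposited normalised values were not used, and TPM served only to compare levels between genes.

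Estimated counts were rounded and tested in R 4.3.3 with edgeR 4.0.16 and limma 3.58.1. Filtering by filterByExpr at a minimum of 10 counts left 16552 genes, holding at least 99.92% of counts. After TMM scaling, the robust quasi-likelihood model held a mean for each of the 8 groups over 24 libraries, with Benjamini-Hochberg adjustment over all genes and a threshold of 0.05. The SE is the log2 change divided by the root of its F statistic. The biological coefficient of variation was 17.6%. On data simulated for Apc loss on day 1 (16389 genes, 200 changed), 52.2%, 80.6% and 93.9% of genes changed 1.5-fold, 2-fold and 4-fold were recovered, with 11 false calls of 162. The changed genes were drawn only from those above a floor of mean count, and in the data 8226 genes were called. These rates thus do not give the power for genes with few counts, such as Gulo and Gria3. Correlations used log2 CPM with a prior count of 2.

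Named genes were the 10, Nle1, Apc and Abcb1a, up to 5 called genes with the smallest p per list and comparison, and the 3 most similar genes each. Crip1, Cdkn1a and marker genes were named outside that rule, after their values were seen. Alternatives were DESeq2 1.42.0, DESeq2 size factors, no filter or a stricter filter, a replicate block, a term for sex, a fit of the compared libraries alone, and omission of each library. Leaving out the 3 libraries that stood apart was chosen after seeing the data. Transcript overlaps, 31-base words and positions come from GENCODE M21 (GRCm38), not from the authors' annotation.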

Additional observations from a re-analysis of the deposited data

How the results depend on the processing

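Under Nle1 loss, 515 of 528 values of the 10 genes over the alternatives stayed within the spread between replicates and 13 moved. Under Apc loss, 429 of 469 stayed on their side of the threshold, 29 lost the call and 11 gained it. Of the counts of genes called, Nle1 loss with Apc intact, day 1 (411) was 224 without a filter beyond 1 count, 6 with only the libraries compared and 805 by DESeq2. Nle1 loss with Apc intact, day 2 (2581) was 279, and Nle1 loss with Apc lost, day 1 (1762) was 535, with only the libraries compared. Without the 3 libraries that stood apart the last was 33. Apc loss with Nle1 present, day 2 minus day 1 (187) was 115 with no filter, 108 with only the libraries compared, 514 by DESeq2 and 3 without those libraries. For members called under Apc loss, day 1 the count was 7, and 4 without those libraries; for members called under Apc loss, day 2 it was 5, and 3 with no filter. The cause was not tested.

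Leaving out each library in turn gave 29 to 1159 genes for Nle1 loss with Apc intact, day 1 and 1206 to 2818 on day 2 (Nle1 loss with Apc intact, day 2). It gave 600 to 2147 for Nle1 loss with Apc lost, day 1 and 66 to 403 for Apc loss with Nle1 present, day 2 minus day 1. The members called under Apc loss, day 1 were then 4 to 7, the lowest without Control replicate 1 or ApccKO replicate 1. The members called under Apc loss, day 2 were 3 to 6, the lowest without ApccKO replicate 1 or 3 or Control replicate 1 or 2.

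Replicate numbers pair no samples by the labels. In none of the 6 comparisons did all same-numbered libraries deviate together with an r over 0.1. With the replicate block, Nle1 loss with Apc intact, day 1 gave 355 genes, and 7 and 6 members were called under Apc loss on day 1 and day 2.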
